A study of Mus musculus with 8 samples.

Results

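The genes described here are 10 components of epithelial adherens junctions and desmosomes, chosen by name rather than by their values: Cdh1, Cdh3, Epcam, Dsp, Dsg2, Dsc2, Pkp1, Pkp3, Jup and Ctnnd1. Every non-control probe whose RefSeq accession belongs to one of them was taken, which gave 12 probes on 30 spots out of 55681 distinct probes on the array, and 10 genes out of 21368 named ones. All 12 probes passed the filter on dim spots and were tested. Dsp and Dsg2 have 2 probes each, the other 8 genes have 1, and the Cdh1 probe and one Dsp probe are each printed on 10 spots. The samples are 8 mouse breast tumours of the FVB strain, each on 1 array. Of these, 4 are labelled FGFR1 KO, from mice of genotype K19-tva/fgfr1loxP/loxP, and 4 are labelled WT, the control mice with K19-tva alone. Both groups therefore carry K19-tva, in which, by its name, keratin 19 regulatory sequence drives the viral receptor tva. The floxed allele came from ICR mice backcrossed to FVB. The sources used here do not give the tumour-inducing gene, how recombination was brought about, the ages, or whether each tumour came from a separate animal, and p-values then measure only the spread between these 8 samples, which may be technical. The number of arrays limits the precision.

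Adherens junctions and desmosomes are the mechanical contacts that hold epithelial cells to each other. In an adherens junction, a classical cadherin binds its like on the neighbouring cell, and catenins tie its tail to actin. In a desmosome, desmogleins and desmocollins bind across the gap, and plakoglobin, plakophilins and desmoplakin tie them to keratin filaments. In the mammary gland E-cadherin marks luminal cells and P-cadherin marks myoepithelial cells, and loss of E-cadherin is a familiar feature of cells in epithelial-mesenchymal transition.

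Each value is the log2 ratio of tumour RNA, taken to be in the red channel as the labelling protocol states, to a common human reference RNA in green. The label field names only cy3. Correlations within groups over all spots were 0.973 to 0.990 in green and 0.894 to 0.975 in red. WT 2 stood apart from the other arrays, with a mean correlation of 0.379 across probes to the other 7, against 0.597 to 0.713 for those. On the WT arrays a rectangle of the array (its first row is 97 and its first column 83, and it holds 31.3% of the spots) was bright at negative controls, whose red signal above local background reached 174 to 236 units at the 90th percentile there and 9 to 13 elsewhere. The same percentile was 7 to 13.8 there on the FGFR1 KO arrays. Of the 30 member spots, 9 lay in this rectangle, among them the only spots of Epcam, Ctnnd1 and the second Dsp probe. The share of spots with red well above background was 68.9% to 83.9% in FGFR1 KO and 43.9% to 69.2% in WT. This flag did not follow brightness alike on all arrays. Median red was 256 units on WT 1, with 43.9% of spots flagged, and 116.5 on FGFR1 KO 2, with 68.9%. Counts of flagged arrays or spots below are therefore not a like measure of dimness in FGFR1 KO and WT. All 8 arrays are on 1 slide, FGFR1 KO in one row and WT in the other, and the effect of the row cannot be told apart from that of genotype. The probe that represents Fgfr1 read 0.19 to 0.45 in FGFR1 KO and 0.23 to 0.38 in WT. Where that probe lies relative to the floxed part is unknown here, and it does not check the labels.

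No junction gene passed the test between FGFR1 KO and WT. By limma, with p-values adjusted by Benjamini-Hochberg over the 39795 probes tested, 0 of the 12 probes were called, with adjusted p from 0.607 to 0.898, and over all probes 4 were called, or 0.0101%. At an unadjusted p under 0.05 the count was also 0 of 12, against 8.48% of all probes. The estimate was above 0, meaning higher in FGFR1 KO, for 9 of the 10 genes, each represented by its brightest probe, with a median of 0.34, and for 10 of the 12 probes, against 52.5% of all probes. Over all 16761 genes tested, 49.6% were above 0 and the median was -0.0023. WT 1 and WT 2 read low for most of the 10 genes. Leaving them out therefore raises the WT mean of those genes and lowers their difference by construction. With those 2 arrays left out, 4 of 10 were above 0 with a median of -0.096, and again 0 of 12 probes were called, in a fit that called 0 of all probes (0%), while 7.39% of all probes and 1 of the 12 had an unadjusted p under 0.05. Members share the same 8 arrays and are not replicates of a genotype.

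**Figure D1:**
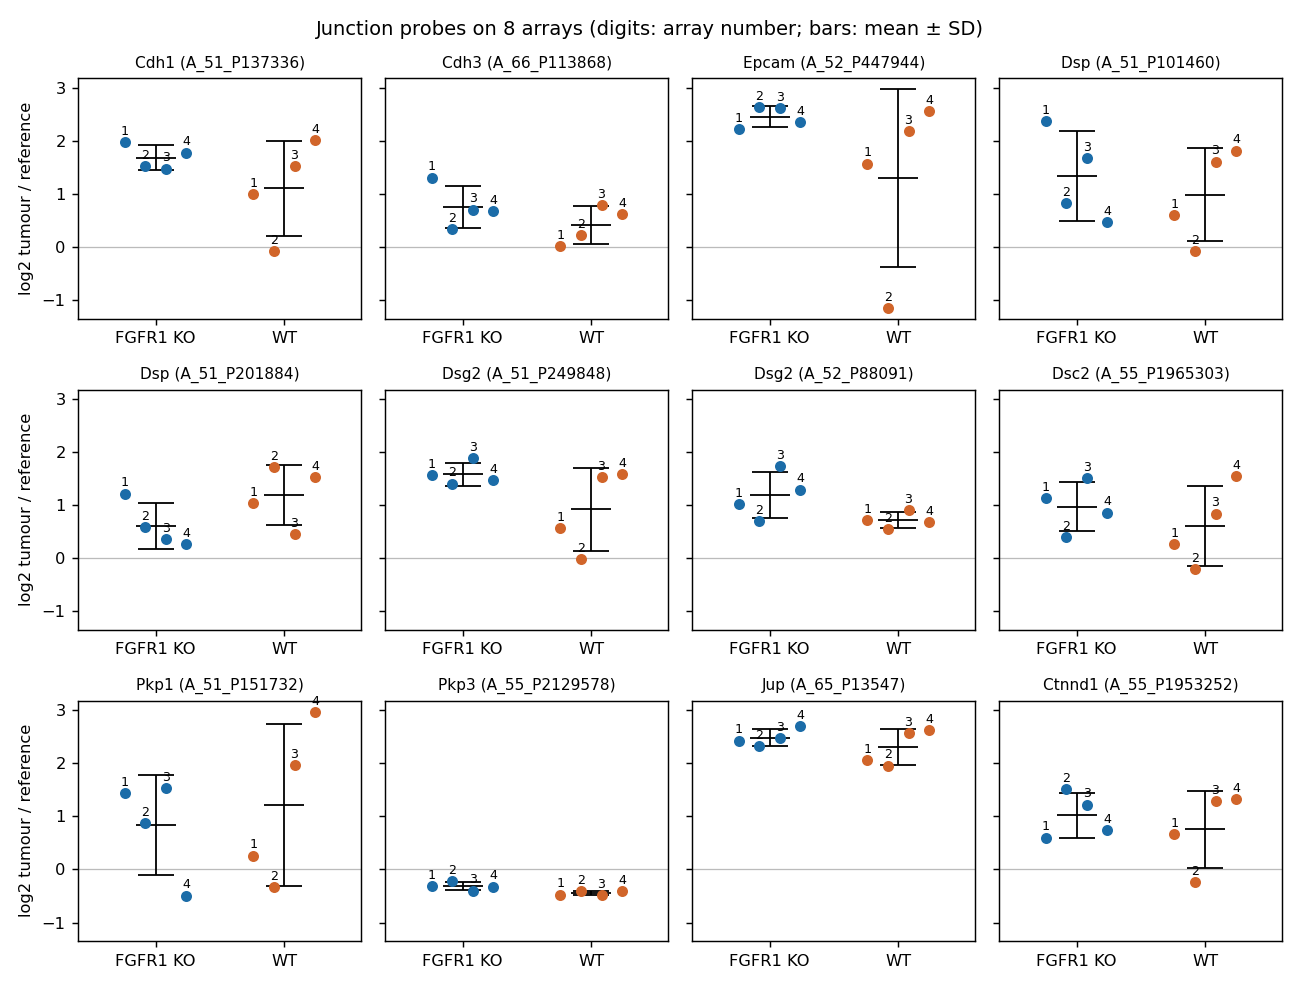
Log2 ratio of tumour to reference for each of the 12 probes (y axis) in the 4 FGFR1 KO and 4 WT arrays (x axis), with 1 point per array, its array number beside it, and the mean and SD of each group as bars. WT 2 is the lowest point of 7 of the 10 genes, among them Epcam at -1.14, and FGFR1 KO 4 is the lowest for Pkp1 at -0.49.

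Cdh1 encodes E-cadherin, the classical cadherin of epithelial adherens junctions. Its probe A_51_P137336 (NM_009864) read 1.97, 1.52, 1.47 and 1.78 on FGFR1 KO 1 to 4 and 1.00, -0.078, 1.52 and 2.01 on WT 1 to 4. The FGFR1 KO arrays lay close together, while WT 1 and WT 2 lay below all of them and WT 4 above, so the groups overlapped. The means were 1.69 ± 0.23 (SD, n = 4) and 1.11 ± 0.89 (SD, n = 4), and the difference of 0.57 ± 0.40 (SE) had a 95% interval from -0.33 to 1.47 (limma, adjusted p = 0.707). With WT 1 and WT 2 left out it was -0.077 ± 0.23 (SE), with an interval from -0.60 to 0.44.

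The 10 repeat spots of this probe show how well a single array fixed the value. Their SD within an array ran from 0.13 to 0.26, well under the 2.09 that separated the highest and lowest array. On WT 2 the spots ran from -0.43 to 0.14, and WT 2 was the lowest of the 8 arrays at 9 of the 9 spots that gave a value there. On WT 1 they ran from 0.56 to 1.30 and on FGFR1 KO 3 from 1.25 to 1.80. The low E-cadherin values of WT 1 and WT 2 were therefore repeated across the array and did not come from 1 spot. Of the 10 spots, 3 lay in the bright rectangle. Their mean on WT 2 was 0.11, against -0.13 for the spots outside it, and on FGFR1 KO 1 it was 2.06 against 1.93. In red, however, 0 of 10 spots were well above background on WT 1 and 1 of 10 on WT 2, against 5 of 10 on WT 3 and 10 of 10 on WT 4 and each FGFR1 KO array. The WT 1 and WT 2 values thus rest mostly on spots that were not flagged as well above background. Their red log2 signal after A-quantile normalization was 7.33 and 6.47, against 7.83 to 8.40 on the other arrays. The flag is not brightness alone, as red was 8.08 on WT 3 and 8.09 on FGFR1 KO 3, where 10 of 10 spots were flagged.

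**Figure D2:**
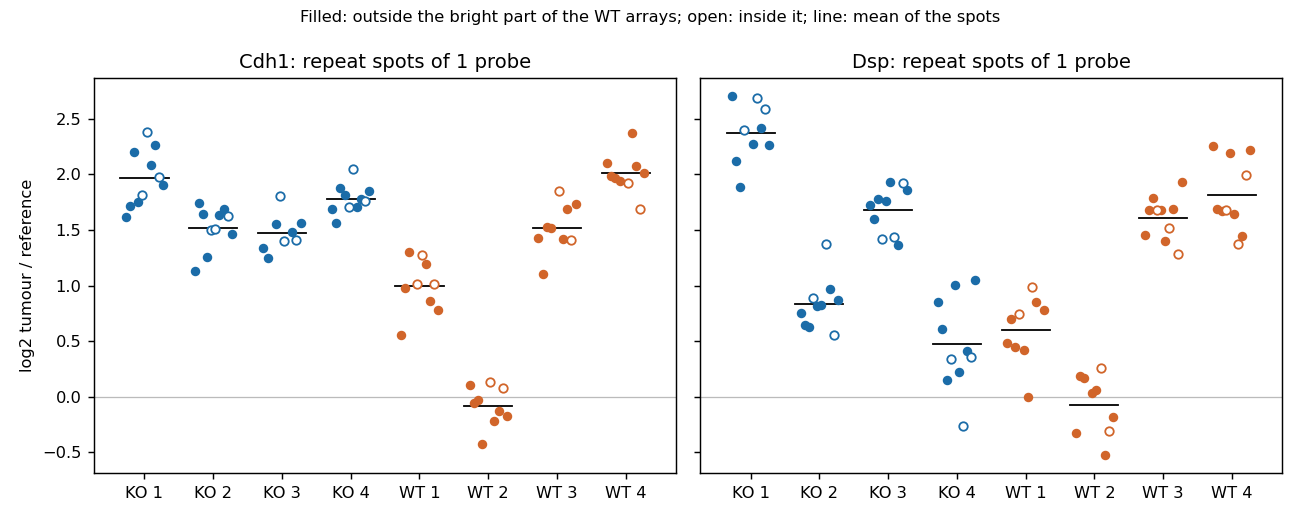
Log2 ratio of tumour to reference (y axis) at each of the 10 spots of the Cdh1 probe and of the Dsp probe A_51_P101460 on each array (x axis), with filled points outside and open points inside the bright rectangle and a line at the mean. Cdh1 spots on WT 2 lie at or below 0.14, and Dsp spots differ more between FGFR1 KO arrays, from at least 1.89 on FGFR1 KO 1 to at most 1.05 on FGFR1 KO 4.

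Epcam encodes the homophilic adhesion molecule EpCAM of simple epithelia, which is also a routine marker of carcinoma cells. Its probe A_52_P447944 (NM_008532) had the widest range of the 12. It read 2.22, 2.63, 2.62 and 2.35 on FGFR1 KO 1 to 4 and 1.57, -1.14, 2.19 and 2.56 on WT 1 to 4. WT 2 lay far below the next lowest array, WT 1, and the other 6 arrays spanned only 0.45. The difference was 1.16 ± 0.70 (SE), or 2.24-fold, with an interval from -0.43 to 2.76 (limma, adjusted p = 0.674). Leaving out WT 1 and WT 2 brought it to 0.083 ± 0.21 (SE) and the interval to -0.39 to 0.56. The only Epcam spot lay in the bright rectangle, where negative controls were bright on WT arrays, and the part of this in the value was not tested. In log2 signal after A-quantile normalization, red at this spot was 8.87 on WT 2 and 11.45 to 12.71 across the remaining arrays, and green was 9.74 to 10.22 on all 8.

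The proximal promoters are shown because Epcam had the widest and Jup one of the narrowest ranges over the arrays. RefSeq's table (GRCm38.p6) matched 4 of the 10 genes, Epcam, Dsp, Jup and Ctnnd1, the last with 2 entries, and had no match for Cdh1, Cdh3, Dsg2, Dsc2, Pkp1 and Pkp3. The 250 bases before the start were searched for CACCTG and its reverse complement CAGGTG, the E-box bound by SNAIL and ZEB repressors, and on both strands for the Grainyhead sequence AACNNGTT, with capitals marking any match. The Epcam stretch (chr17:87635729-87635978, + strand) held 2 E-box matches, whose first bases lie 187 and 19 bases before the start, and the Jup stretch (chr11:100397791-100398040, - strand) held 0. The stretches of Dsp and Ctnnd1 held 0 as well, and 0 of the 5 held the Grainyhead sequence. Over all 32851 stretches of this length in the table, 17.2% held the E-box and 3.64% the Grainyhead sequence. These are matches of letters within a short window and say nothing of binding.
Epcam: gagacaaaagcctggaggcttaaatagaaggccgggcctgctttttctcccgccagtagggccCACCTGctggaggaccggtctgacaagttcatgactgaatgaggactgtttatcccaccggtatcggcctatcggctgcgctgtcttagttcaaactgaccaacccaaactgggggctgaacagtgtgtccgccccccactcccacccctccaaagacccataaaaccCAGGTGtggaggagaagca
Jup: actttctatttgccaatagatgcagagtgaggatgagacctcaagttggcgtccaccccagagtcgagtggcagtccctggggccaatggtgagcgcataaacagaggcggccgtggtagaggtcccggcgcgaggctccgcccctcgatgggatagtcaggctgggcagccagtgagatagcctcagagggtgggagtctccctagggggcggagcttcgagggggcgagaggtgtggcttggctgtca

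Cdh3 encodes P-cadherin, the classical cadherin of myoepithelial and basal cells. Probe A_66_P113868 (NM_001037809) read 1.31, 0.34, 0.71 and 0.67 on FGFR1 KO 1 to 4 and 0.025, 0.22, 0.79 and 0.62 on WT 1 to 4. It was highest on FGFR1 KO 1 and lowest on WT 1, and the groups overlapped. Its difference of 0.34 ± 0.25 (SE) had an interval from -0.22 to 0.90 (limma, adjusted p = 0.720) and was 0.048 ± 0.27 (SE) without WT 1 and WT 2. Unlike E-cadherin, it spanned nearly as much over the 6 other arrays (0.97) as over all 8 (1.28).

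The catenins of the set bind cadherin tails. Ctnnd1 encodes p120-catenin, which keeps cadherins at the cell surface. Its probe A_55_P1953252 (NM_007615), in the bright rectangle, read 0.60, 1.51, 1.22 and 0.74 on FGFR1 KO 1 to 4 and 0.66, -0.24, 1.28 and 1.32 on WT 1 to 4. Only WT 2 stood below the rest, and FGFR1 KO 1 lay just under WT 1. The difference was 0.26 ± 0.36 (SE), with an interval from -0.56 to 1.09 (limma, adjusted p = 0.849), and it turned to -0.070 without WT 2 and to -0.28 ± 0.27 (SE) without WT 1 and WT 2.

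Jup encodes plakoglobin, or gamma-catenin, the one catenin found in both kinds of junction. Probe A_65_P13547 (NM_010593) read 2.42, 2.32, 2.47 and 2.69 on FGFR1 KO 1 to 4 and 2.05, 1.95, 2.57 and 2.61 on WT 1 to 4. The order was the familiar one, with WT 2 lowest and WT 1 next, but all 8 arrays fell within 0.74. Its interval was correspondingly narrow, -0.26 to 0.61 around 0.18 ± 0.19 (SE) (limma, adjusted p = 0.799). The direction turned with Feature Extraction's own log ratio, to -0.13, and without WT 1 and WT 2, to -0.11.

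The desmosomal cadherins are represented by Dsg2 and Dsc2, the desmoglein and desmocollin of simple epithelia. Dsg2 probe A_51_P249848 (NM_007883) read 1.56, 1.40, 1.88 and 1.47 on FGFR1 KO 1 to 4 and 0.57, -0.016, 1.53 and 1.59 on WT 1 to 4. As at Cdh1, the FGFR1 KO values were tight and WT 1 and WT 2 lay below them. The likeness rested on those WT arrays, as the Pearson r with Cdh1 was 0.90 over all 8 arrays and -0.19 without them. The means were 1.58 ± 0.21 (SD, n = 4) and 0.92 ± 0.78 (SD, n = 4), and the difference of 0.66 ± 0.35 (SE) had an interval from -0.13 to 1.45 (limma, adjusted p = 0.642). Without WT 1 and WT 2 the difference was 0.021 ± 0.19 (SE).

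The second Dsg2 probe, A_52_P88091, gave a different picture. It read 1.02, 0.70, 1.73 and 1.29 on FGFR1 KO 1 to 4 and 0.72, 0.55, 0.91 and 0.68 on WT 1 to 4. Here the WT arrays lay close together, WT 4 as low as WT 1, and the wider spread was among the FGFR1 KO arrays. The difference was 0.47 ± 0.22 (SE), the smallest p of the 12 probes (unadjusted 0.0625, limma adjusted p = 0.607), and 0.39 ± 0.28 (SE) without WT 1 and WT 2. This probe was well above background in red on 1 of 4 WT arrays, while A_51_P249848 was on all 8.

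Dsc2 probe A_55_P1965303 (NM_013505) read 1.13, 0.39, 1.50 and 0.86 on FGFR1 KO 1 to 4 and 0.27, -0.20, 0.84 and 1.54 on WT 1 to 4. WT 1 and WT 2 were again the lowest, but FGFR1 KO 2 lay only just above WT 1. The difference of 0.36 ± 0.38 (SE), with an interval from -0.51 to 1.22 (limma, adjusted p = 0.798), turned to -0.22 ± 0.33 (SE) without WT 1 and WT 2. Red was well above background on 2 of 4 WT arrays.

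Among the plaque proteins, Dsp encodes desmoplakin, the link from the plaque to keratin filaments. Probe A_51_P101460 (NM_023842) read 2.37, 0.83, 1.68 and 0.48 on FGFR1 KO 1 to 4 and 0.60, -0.070, 1.61 and 1.81 on WT 1 to 4. The FGFR1 KO arrays spread as widely as the WT arrays, with an SD of 0.85 against 0.88, and FGFR1 KO 4 lay below WT 1. The 10 repeat spots had SDs of 0.19 to 0.41 within arrays, so the gap between FGFR1 KO 1 (1.89 to 2.70) and FGFR1 KO 4 (-0.26 to 1.05) was larger than the spread between spots. The difference was 0.35 ± 0.52 (SE), with an interval from -0.82 to 1.52 (limma, adjusted p = 0.857). It was -0.0033 without WT 2 and -0.37 ± 0.48 (SE) without WT 1 and WT 2.

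The other Dsp probe disagreed. A_51_P201884 read 1.22, 0.59, 0.36 and 0.27 on FGFR1 KO 1 to 4 and 1.04, 1.71, 0.45 and 1.53 on WT 1 to 4, so that WT 2, the lowest array at the first probe, was the highest here. Its difference was -0.57 ± 0.31 (SE) (limma, adjusted p = 0.649), and 0.71 with Feature Extraction's log ratio. Its 1 spot lay in the bright rectangle and was well above background on 3 of 4 FGFR1 KO and 2 of 4 WT arrays. In the same log2 signal, red at that spot averaged 7.14 in FGFR1 KO and 8.30 in WT, and green 6.53 and 7.11. At the first probe red averaged 8.86 and 8.49, and green 7.52 and 7.50. Red at the second probe was thus brighter on average in WT, although fewer WT arrays were flagged as well above background. The desmoplakin values above therefore rest on the probe with 10 spots.

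Pkp1 encodes plakophilin 1, a plaque protein typical of stratified epithelia, and its level varied widely in both groups, with an SD of 0.93 in FGFR1 KO, the largest of the 12 probes there, and 1.52 in WT. Probe A_51_P151732 (NM_019645) read 1.44, 0.86, 1.53 and -0.49 on FGFR1 KO 1 to 4 and 0.26, -0.34, 1.96 and 2.96 on WT 1 to 4. FGFR1 KO 4 was the lowest of all 8 arrays, just under WT 2, while WT 3 and WT 4 were the highest. The difference was -0.37 ± 0.74 (SE), with an interval from -2.06 to 1.31 (limma, adjusted p = 0.898), and it turned to 0.068 without FGFR1 KO 4 and to 0.21 without WT 4. Against WT 3 and WT 4 alone it was -1.62 ± 0.57 (SE), with both above all 4 FGFR1 KO arrays, where 15.3% of all probes do not overlap in one direction or the other (unadjusted p = 0.0215, limma adjusted p = 0.587). That was the 1 probe of 12 under an unadjusted 0.05 in the smaller comparison. FGFR1 KO 4 was also the lowest FGFR1 KO array at both Dsp probes, but not at Cdh1, Epcam, Dsg2 or Jup.

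Pkp3 encodes plakophilin 3, a plaque protein of most simple and stratified epithelia. Probe A_55_P2129578 (NM_001162924) read -0.32, -0.22, -0.40 and -0.33 on FGFR1 KO 1 to 4 and -0.48, -0.41, -0.48 and -0.42 on WT 1 to 4. This was the 1 member whose groups did not overlap, with FGFR1 KO 3 and WT 2 less than 0.01 apart. Over all probes tested, 2.39% had every FGFR1 KO array above every WT array, 2.71% had every one below, and 5.1% did not overlap in either direction. The difference was 0.13 ± 0.12 (SE), with an interval from -0.14 to 0.40 (limma, adjusted p = 0.764), and 0.13 ± 0.16 (SE) without WT 1 and WT 2. The groups overlapped with median centring, with scale normalization between arrays and with red signal alone. Both channels were bright at this spot, with log2 signals after A-quantile normalization of 15.84 to 16.17 in red and 16.23 to 16.65 in green. Feature Extraction marked the spot as saturated on 0 arrays in either channel, with raw red signals of 34506 to 69949 and raw green signals of 92312 to 162254. Only 0.133% of non-control spots were brighter on average, and whether this spot measures Pkp3 RNA alone was not tested. Raw log2 ratios, less each array's median, ran from -0.75 on WT 2 to -0.12 on FGFR1 KO 1, while the loess-normalized ratios spanned 0.27, so the narrow range and the separation of the groups depend on the normalization.

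**Figure D3:**
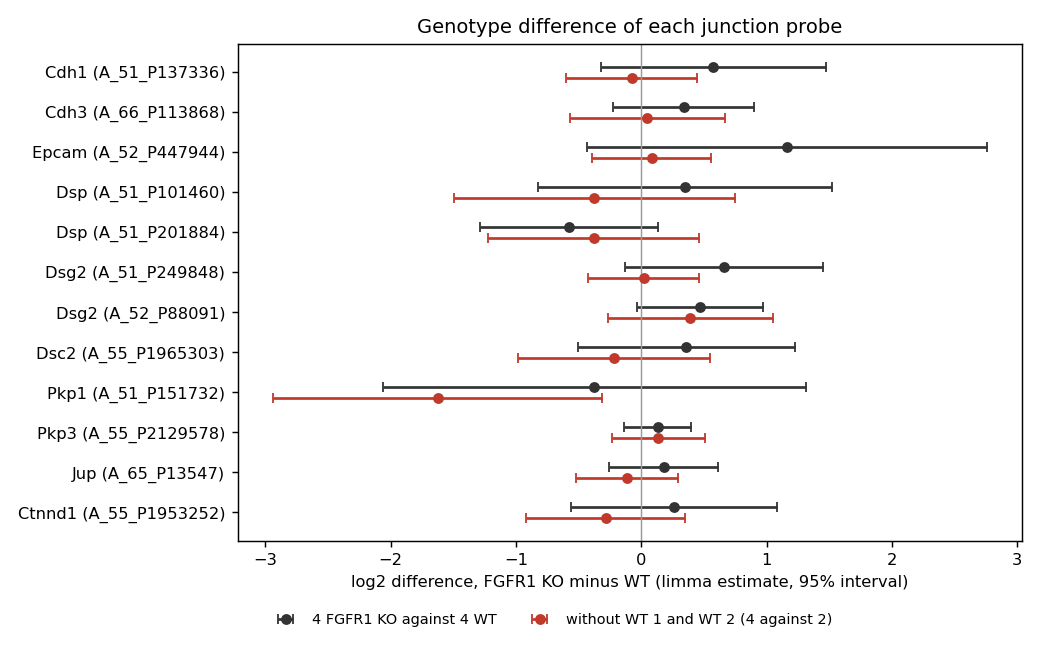
Estimated log2 difference, FGFR1 KO minus WT, with its 95% interval (x axis) for each of the 12 probes (y axis), over all 8 arrays in black and without WT 1 and WT 2 in red. All 12 black intervals include 0, and the red estimates for Cdh1, Epcam and Dsg2 (A_51_P249848) lie within 0.10 of it.

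Most of the 10 genes, though not Pkp3, varied together over the 8 arrays, and for most pairs of genes this rested on WT 1 and WT 2. Of the 45 pairs, 32 had a Pearson r above 0.5 over the 8 arrays and 6 without WT 1 and WT 2. WT 2 was the lowest array for 7 of the 10, against 21.6% of all probes with 8 values, and WT 1 and WT 2 were both below the other 6 arrays for 6 of 10, against 8.24% of all probes. The 45 pairs of genes had a median Pearson r of 0.65 over the 8 arrays (range -0.20 to 0.92), highest for Cdh1 with Epcam. Over the 6 arrays without WT 1 and WT 2 the median was 0.038 (range -0.78 to 0.79). These are descriptions over arrays that share their reference and print layout. Against the mean of the other members, Dsg2 had the highest r (0.94 over 8 arrays, 0.49 over 6). Pkp3 had the lowest (0.12 over 8, -0.57 over 6). Pkp1, Dsp and Dsc2 kept an r of 0.77, 0.75 and 0.69 over the 6 arrays, while Cdh1 and Epcam had 0.28 and -0.0091. The WT arrays had the larger SD at 8 of the 10 genes.

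Partners of the junctions were listed without regard to how they moved, though with earlier results of these data known. Of 19 adherens junction partners, among them catenins, nectins and actin linkers, 18 were above 0 with a median of 0.26, 0 were called, and 4 above and 1 below 0 had an unadjusted p under 0.05. Over all genes tested, 3.10% were above 0 and 4.78% below 0 at that p. Without WT 1 and WT 2, 10 of 19 were above 0 and the median was 0.00063. Ctnna1 and Ctnnb1, the alpha- and beta-catenin that complete the E-cadherin complex, differed by 0.18 ± 0.27 and 0.11 ± 0.16 (SE), and by -0.27 and -0.11 without those arrays. The Ctnnb1 probe had a spot in the bright rectangle. Camsap3, which anchors microtubules at adherens junctions, had the smallest p. It read 1.32, 1.29 and 1.20 on FGFR1 KO 2 to 4, with no value on FGFR1 KO 1, and 0.14, -0.11, 0.88 and 0.69 on WT 1 to 4. Its groups did not overlap, and its difference was 0.87 ± 0.25 (SE) over 7 arrays (limma, adjusted p = 0.442) and 0.49 without WT 1 and WT 2. Its spot lay in the bright rectangle.

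Of 13 other desmosome, envelope and filament partner genes, 8 were above 0 with a median of 0.17, and 0 had an unadjusted p under 0.05. Leaving out WT 1 and WT 2 turned this to 4 of 13 above 0 with a median of -0.077. There 1 gene had an unadjusted p under 0.05, against 6.52% of all genes. With the bright rectangle left out the median was -0.034. Evpl, which encodes the desmosome-linked protein envoplakin, differed by 0.76 ± 0.40 (SE) and by 0.13 without WT 1 and WT 2. Of 7 other cadherins, 5 were below 0 with a median of -0.22 over the 8 arrays. Leaving out WT 1 and WT 2 gave 4 of 7 above 0 and a median of 0.032. Cdh15, the M-cadherin gene of muscle, had the smallest p of this list over the 8 arrays. It differed by -0.72 ± 0.29 (SE), and by -0.25 without WT 1 and WT 2. It read 0.33 on WT 1 and 0.76 on WT 2, while the remaining 6 arrays ran from -0.82 to -0.13. Of 15 genes of cadherin turnover, 9 were below 0 with a median of -0.069. Mmp3, a matrix protease able to cleave E-cadherin, differed by -1.63 ± 0.59 (SE), and by -1.81 ± 0.42 (SE) without WT 1 and WT 2 (limma, adjusted p = 0.511 and 0.386). The Evpl and Mmp3 spots lay in the bright rectangle, and the part of this in their values was not tested.

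Transcription factors known to act on junction genes formed 2 lists. Of 8 measured repressors, 7 were below 0 with a median of -0.47, and 4 had an unadjusted p under 0.05, all below 0, against 4.78% of all genes, while 0 were called. Without WT 1 and WT 2, 6 of 8 were below 0 with a median of -0.30, and 1 had an unadjusted p under 0.05. Zeb2, a zinc finger repressor of Cdh1, read -1.002, -0.40, -0.89 and -0.61 on FGFR1 KO 1 to 4 and 0.13, -0.020, -0.31 and -0.42 on WT 1 to 4. It was lower on most FGFR1 KO arrays, with FGFR1 KO 2 just above WT 4, and differed by -0.57 ± 0.19 (SE; limma, adjusted p = 0.479) and by -0.36 without WT 1 and WT 2, with a red signal well above background on 1 of 4 WT arrays. Snai1 differed by -0.95 ± 0.34 (SE) and by -1.09 without WT 1 and WT 2. Its spot lay in the bright rectangle and was well above background on 1 of 4 WT arrays. Zeb1 was high on WT 1 and WT 2 (0.41 and 0.36, against -0.61 to -0.17 elsewhere) and differed by -0.38 ± 0.24 (SE), and by 0.027 without them. Snai2 differed by -0.035 ± 0.47 (SE).

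Of 16 epithelial transcription and splicing factors, 13 were above 0 with a median of 1.08, and 0 were called. An unadjusted p under 0.05 was found for 5 above and 1 below 0, against 3.10% and 4.78% of all genes. Without WT 1 and WT 2 the median was 0.18, with 10 of 16 above 0. In that fit 2 of 16 had an unadjusted p under 0.05, against 6.52% of all genes. Grhl2, a Grainyhead factor that activates Cdh1 and other junction genes, read 2.74, 2.86, 2.59 and 2.91 on FGFR1 KO 1 to 4 and 1.72, -0.46, 2.40 and 2.29 on WT 1 to 4. Every FGFR1 KO array was above every WT array, with WT 2 far below the rest. The difference was 1.29 ± 0.56 (SE), and 0.43 ± 0.17 (SE) without WT 1 and WT 2 (limma, adjusted p = 0.588 and 0.649), from a spot in the bright rectangle. Esrp1, an epithelial splicing factor, differed by 0.78 ± 0.37 (SE) and by 0.11 without WT 1 and WT 2, and Ovol2 by 0.080 ± 0.15 (SE). The Esrp1 and Ovol2 spots lay in the bright rectangle too. Klf4, a Krüppel-like factor, had the smallest p of its list and was lower on every FGFR1 KO array, at -1.08 ± 0.30 (SE; limma, adjusted p = 0.413) and -0.59 without WT 1 and WT 2.

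Adipocyte and skeletal muscle markers were highest on the arrays where junction genes were lowest. The median of 15 adipocyte genes was 3.15 on WT 1 and 3.71 on WT 2, and lay between 0.25 and 0.45 on the rest. For 16 skeletal muscle genes it was 1.62 on WT 1 and 8.43 on WT 2, against -0.38 to 0.35 elsewhere. Luminal mammary genes, 15 in number, had a median of 1.46 on WT 1 and 0.14 on WT 2, against 1.52 to 3.01 elsewhere. The luminal keratin genes Krt8 and Krt18 read -3.94 and -3.16 on WT 2 and were above 0 on the other 7 arrays. Krt19, for which the transgene is named, read -2.74 on WT 2 and 2.63 to 5.16 on the remaining 7. The Krt18 and Krt19 spots lay in the bright rectangle. Of the 15 luminal genes, 10 were lowest on WT 2, but Krt7, another luminal keratin gene, and Spint1, a protease inhibitor gene, were highest there, at 3.38 and 2.38. Krt7 and Spint1 are named after their values were seen. No tested gene of any marker list was below background on every array of a group. In bulk tissue, fewer cells of a type and less RNA per cell cannot be told apart, and the part of these tissue markers in the junction values was not tested. The junction gene median was 0.59 on WT 1 and -0.14 on WT 2, against 0.80 to 1.70 elsewhere.

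The median of 18 fibroblast and matrix genes ran from -2.44 to -0.81 in FGFR1 KO and was -0.13, -1.10, 0.11 and -0.34 on WT 1 to 4, so that only WT 2 lay among the FGFR1 KO arrays. All 18 were below 0 with or without WT 1 and WT 2. Of the 18, 16 had an unadjusted p under 0.05 and 9 did not overlap between the groups, against 7.88% of all genes and, for non-overlap in this direction, 2.50%. Without WT 1 and WT 2 the first count was 12, against 6.52% of all genes, and 0 were called in either fit. Vim, the mesenchymal filament gene, differed by -1.18 ± 0.36 (SE) (limma, adjusted p = 0.449) and by -0.86 without WT 1 and WT 2. Its spot lay in the bright rectangle, and the part of this in the value was not tested. The medians of 14 basal and myoepithelial genes (0.27 to 1.59 against -0.077 to 1.33), 10 squamous genes (0.41 to 0.56 against -0.20 to 0.73), 13 endothelial genes (0.37 to 0.77 against 0.52 to 1.37) and 17 leukocyte genes (-0.46 to -0.010 against -0.39 to 0.64) overlapped between FGFR1 KO and WT. The basal median was highest on FGFR1 KO 1 and WT 4, at 1.59 and 1.33, which were also the highest arrays at the main Dsp probe. Milk genes had low medians of 0.60 on FGFR1 KO 1 and 0.24 on WT 2 and reached 3.37 to 7.35 elsewhere, so FGFR1 KO 1 was low in milk genes but not in junction genes.

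**Figure D4:**
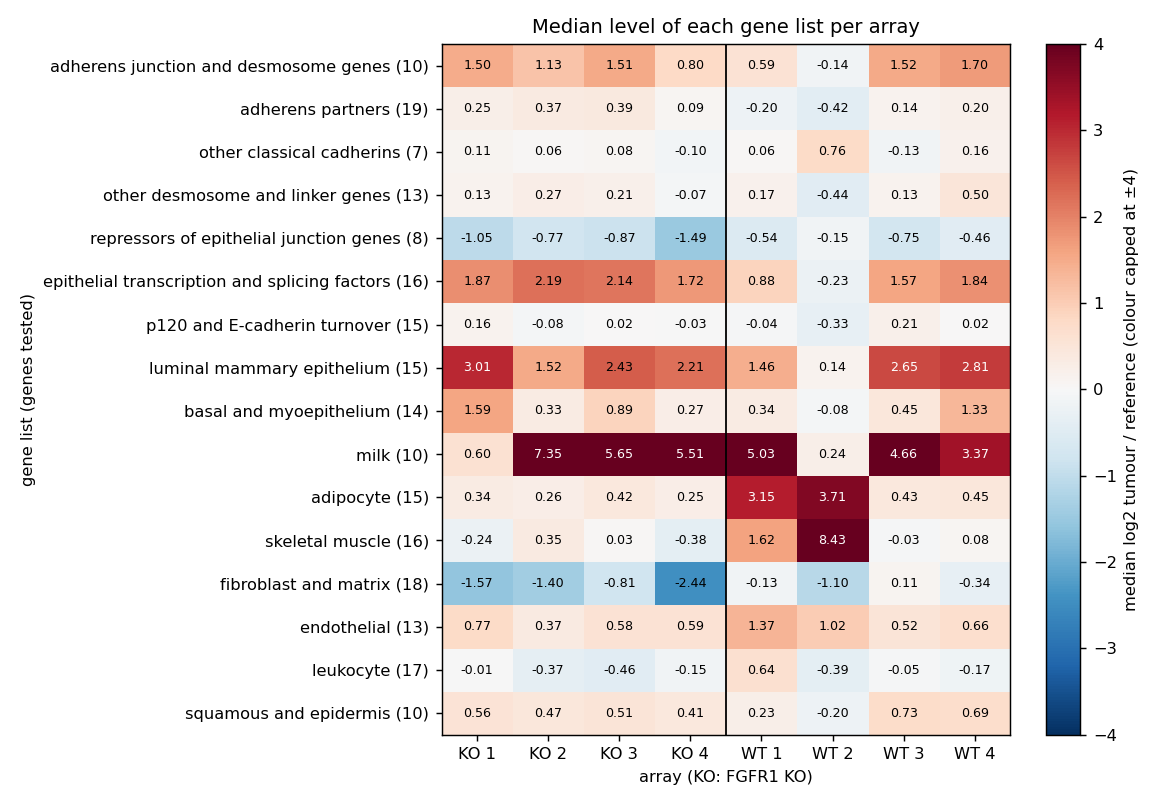
Median log2 ratio of tumour to reference of each gene list (y axis, number of genes tested in brackets) on each array (x axis), with the value in each cell and colours capped at 4 on either side. WT 1 and WT 2 are low in junction genes (0.59 and -0.14) and high in adipocyte genes (3.15 and 3.71), and WT 2 is at 8.43 in skeletal muscle genes.

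Genes whose pattern was most like the mean profile of the 10 were looked for among 15283 named genes with a value on every array. The 5 highest Pearson r over the 8 arrays belonged to Nectin2 (0.97), a nectin of adherens junctions, Ctnna1 (0.97), Mysm1, Rps23rg1 and Cntrl (each 0.97). Over the 6 arrays without WT 1 and WT 2 their r was 0.80, 0.87, 0.78, 0.89 and 0.83. The 3 most opposite were the mitochondrial enzyme genes Pccb (-0.98) and Pdhb (-0.97) and the integrin-binding protein gene Itgb1bp1 (-0.98). Their r over the 6 arrays was -0.94, -0.82 and -0.93. Pdhb, a pyruvate dehydrogenase subunit, read 3.36 on WT 2 and 1.87 on WT 1, against -0.087 to 1.37 elsewhere. These correlations are descriptions of 8 arrays.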

How the data were processed

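RNA of 8 mouse tumours was measured on 2-colour Agilent arrays. Scans were processed in Feature Extraction 11.0.1.1 (Agilent), with probe positions on mm9, per the file headers. Per the file headers, median signal and background columns are uncorrected spot intensities, processed signals are background-subtracted, detrended and dye-normalized intensities, and the log ratio column is in log10, red against green. The deposited series matrix was found to hold log2 red over green (r = 0.993 to 0.997 with the values here), with column medians from -0.0152 to 0.0155. Its normalization and centring stay unknown.

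Median signals were corrected by normexp (offset 50) and normalized by loess within arrays in limma 3.58.1 (R 4.3.3), with control and outlier spots at weight 0. Spots flagged as outliers were left out, and spots of a probe were averaged. Probes whose red signal was well above background on 4 or more of 8 arrays (for repeated probes, at a share of at least 0.5 of spots), with at least 3 values per group, were tested: 39795 of 55681. Such a probe can pass through the FGFR1 KO arrays alone. Probes were named by RefSeq accession through a GRCm38.p6 gene table, used for names only. FGFR1 KO was compared with WT by lmFit and eBayes (two-sided). P-values were adjusted over all probes by Benjamini-Hochberg, with a threshold of 0.05. A gene is represented by its brightest tested probe in red. The fit was tested on simulated data.

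The members and all lists were chosen with earlier results of these data known. Named beside the members are the gene with the smallest p of each pathway list, fixed junction regulators and keratins, and the genes most like or opposite in pattern; Fgfr1 and Krt19 are given as checks. Alternatives covered background correction, normalization, the dim-probe filter, the fit, the bright rectangle, single arrays and a replicate block.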

Additional observations from a re-analysis of the deposited data

How the results depend on the processing

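Of the 12 probes, 0 were called in any of the 23 alternatives, and 1 of these, scale normalization between arrays, was chosen after seeing the data. A-quantile normalization leaves log ratios as they are. Over all probes, 4 were called as reported, 0 with Feature Extraction's log ratio, median centring, scale normalization, red signal alone, trend and robust eBayes, probes above background on all 8 arrays, the bright rectangle left out, or WT 1 and WT 2 left out, 6 with the series matrix, 11 with array weights, 139 with no filter on dim probes, and 0 to 1 with 1 array left out. At an unadjusted p under 0.05 these fits held, by count, from 1514 of 22196 probes tested (above background on all 8 arrays) to 4963 of 55589 (no filter). Among fits that tested 39795 probes the count ran from 2511 (without FGFR1 KO 4) to 4116 (without WT 4). The replicate block called 0 probes and kept 9 of 10 members above 0, but same-numbered arrays share only a number (correlations of their deviations from -0.11 to 0.11, with 3 of 8 arrays closest to their own number). The cause of these changes was not tested.

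Members above 0 numbered 9 as reported and 4 without WT 1 and WT 2, and those below 0 numbered 1 and 6. With the bright rectangle left out, 7 of 8 measured members were above 0 with a median of 0.35. In that setting 59.9% of all probes were above 0, with a median of 0.059. Members below 0 numbered 2 with Feature Extraction's log ratio or with the mean over the probes of a gene, 0 of 6 measured when only probes above background on all 8 arrays were kept, and 0 to 3 with 1 array left out. Members whose groups did not overlap numbered 1 as reported (5.1% of all probes), 2 with Feature Extraction's log ratio (5.66%) or without WT 1 and WT 2 (15.3%), 0 with median centring (3.95%), scale normalization (5.51%) or red signal alone (6.34%), and 1 to 2 with 1 array left out (7.84% to 10.1%); with fewer arrays, groups that do not overlap are commoner over all probes too. The median over members ran from 0.12 (without WT 2) to 0.54 (without WT 4) with 1 array left out. With Feature Extraction's log ratio, 64.6% of all probes were above 0 with a median of 0.12, and with red signal alone 61.9% with a median of 0.10, against 52.5% and 0.02 as reported; the members' medians were 0.45 and 0.34 there.

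Directions turned without WT 1 and WT 2 for Cdh1 (-0.077), the main Dsp probe (-0.37), Dsc2 (-0.22), Jup (-0.11) and Ctnnd1 (-0.28). They turned without WT 2 for the main Dsp probe (-0.0033) and Ctnnd1 (-0.070), and for Pkp1 without FGFR1 KO 4 (0.068) or WT 4 (0.21); with 1 array left out, these 3 ranged from -0.0033 to 0.64, -0.070 to 0.45 and -0.89 to 0.21. They turned with Feature Extraction's log ratio for the second Dsp probe (0.71) and Jup (-0.13). Both Dsg2 probes, Epcam, Cdh3 and Pkp3 kept their direction in every alternative that measured them, but not their size. Without WT 2 the difference was 0.35 for Epcam, 0.35 for the main Dsg2 probe, 0.18 for Cdh1, 0.087 for Dsc2 and 0.065 for Jup. Cdh3 was 0.16 without FGFR1 KO 1 and 0.21 without WT 1, and the second Dsg2 probe was 0.29 without FGFR1 KO 3. Leaving out 1 array gave 0.18 to 0.87 for Cdh1, 0.087 to 0.67 for Dsc2 and 0.065 to 0.29 for Jup. With 1 array left out, Pkp3 and the second Dsp probe moved by less than 1.5 times. Depth here is signal over background: Cdh1 on WT 1 and WT 2, and Dsc2, Pkp1, both Dsp probes and the second Dsg2 probe on some WT arrays, were not well above it.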
